A study of Mus musculus with 36 samples.

Results

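BV-2 cells, an immortalized mouse line widely used as a stand-in for microglia, were exposed for 24 h to lipopolysaccharide (LPS) alone or to LPS together with dimethyl fumarate (DMF), and their poly(A)+ RNA was sequenced. The comparison rests on 6 of the 36 libraries of the series, taken by their labels: 3 libraries of cells given LPS at 600 ng/mL and 3 of cells given the same LPS with DMF at 30 µM. Both groups are labelled wild-type, had their serum lowered to 0.1% right before treatment, and carried vehicle at 0.2% of the medium. The group labels do not say that the solvent was the same in both, and an effect of a differing solvent was not tested. The design text of the series speaks of 3 independent experiments, and the libraries of each group are numbered 1, 2 and 3, though the labels do not say that a number marks an experiment. The line is immortalized, so the replicates are cultures and not animals. The rest of the series holds vehicle alone (DMSO or ethanol), LPS with monomethyl fumarate (MMF) and LPS with cannabidiol (CBD), at 4 and 24 h. The comparison asks how DMF alters the transcripts of microglia-like cells under LPS. Of 17629 genes in the table, 11670 had a normalized count of at least 10 in at least 3 of the 6 libraries and were tested.

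DMF is the dimethyl ester of fumaric acid and is used against multiple sclerosis and psoriasis, and MMF is the monoester that esterases make from it. Both are electrophiles that can modify cysteines, including those of Keap1, the protein that holds the transcription factor Nrf2 in check; free Nrf2 raises genes for glutathione, thioredoxin, NADPH and iron handling through antioxidant response elements. LPS is sensed by Tlr4, which drives NF-kB and its cytokine genes and, through interferon-beta, the interferon-stimulated genes. Other regulators whose targets are followed here are SREBP2, which raises the enzymes of cholesterol synthesis when sterols are scarce, and ATF4, which raises amino acid transport and synthesis genes when translation initiation is restrained.

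Promoter stretches are shown for genes to which the results return, so that the response elements named above can be seen in sequence. They were read from RefSeq promoters of the build GRCm38.p6, on the strand of the gene, and the capitals mark the element as searched on both strands: TCACNCCAC for the sterol response element, GAAANNGAA for the interferon-stimulated element and TGACNNNGC for the core of the antioxidant response element. In Ifit1, Rsad2, Gclm, Txnrd1 and Prdx1 the match lies on the other strand and is shown as its reverse complement.
Hmgcs1, sterol, chr13:119690194-119690242, plus strand: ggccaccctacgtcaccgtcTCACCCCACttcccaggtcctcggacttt
Isg15, interferon, chr4:156200862-156200910, minus strand: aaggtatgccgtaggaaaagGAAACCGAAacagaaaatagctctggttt
Ifit1, interferon, chr19:34640766-34640814, plus strand: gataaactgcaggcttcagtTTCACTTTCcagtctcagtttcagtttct
Rsad2, interferon, chr12:26456543-26456591, minus strand: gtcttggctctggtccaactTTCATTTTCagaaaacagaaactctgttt
Gclm, antioxidant, chr3:122245403-122245451, plus strand: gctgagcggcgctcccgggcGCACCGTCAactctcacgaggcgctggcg
Txnrd1, antioxidant, chr10:82859094-82859142, plus strand: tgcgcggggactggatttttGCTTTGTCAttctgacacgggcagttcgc
Prdx1, antioxidant, chr4:116685446-116685494, plus strand: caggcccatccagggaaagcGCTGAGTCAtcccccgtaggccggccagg
Isg15 holds 3 overlapping matches and Ifit1 holds 3 matches, of which the middle one is printed for each. Among all 27025 genes with a promoter in the table, 1.44% held the sterol element, 9.76% the interferon element and 14% the antioxidant core. A match says only that these letters stand in the window.

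The 6 libraries held between 15081796 and 22774814 reads in genes, recovered from the deposited values, with 14734 to 15506 genes read at least once. The first principal component took 62.9% of the variance of the 1000 most variable genes and set the LPS libraries, at -17.39 to -15.7, apart from the DMF libraries, at 12.29 to 18.9. LPS replicate 1 had 1.44% of its reads in mitochondrial genes, against 2.04 to 2.32% in the other 5 libraries. Of 18 microglia and macrophage markers, 12 passed the filter on low values, among them Csf1r and Spi1, while Fcrls, Siglech and Sall1 were at 0 in every library. Called higher with DMF were the microglial receptor genes P2ry13 (mean 42.9 with LPS and 87.26 with DMF, limma adjusted p = 0.00323) and P2ry12 (0.72 on the log2 scale), the microglial marker Tmem119 (0.57) and Ptprc, which encodes the leukocyte antigen CD45 (0.29). The list did not rise throughout. Cx3cr1 (-0.54, limma adjusted p = 0.0777) and Trem2 (-0.19, 0.103) were lower without a call. The other tested members, not called, ranged from 0.02 (Itgam) to 0.33 (Adgre1). The summed list ranged over 35845 to 47887 with LPS and 43590 to 52844 with DMF. Markers of astrocytes (0 of 6 passing) and lymphocytes (0 of 6 passing, 4 of them at 0) were near 0. The oligodendrocyte list had 3 of 6 passing and summed to 1507 to 1862 with LPS and 1509 to 1656 with DMF, mostly Mbp, the myelin basic protein gene (means 1255 and 1168). In the list of fibroblasts and endothelium 1 of 6 passed, Pecam1, an endothelial adhesion molecule also made by leukocytes, which fell by 0.55 (adjusted p = 0.0374). Within the neuron list, 2 of 8 passed and Map2, a microtubule protein, was lower with DMF by -1.48 on the log2 scale (limma adjusted p = 0.00255).

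With DMF, 2926 of the 11670 genes differed from LPS alone (25.1%), 1390 of them higher (11.9%) and 1536 lower (13.2%), at a limma adjusted p below 0.05. The counts of the gene lists below are to be read against these shares. The median log2 difference over all tested genes was -0.01, and the median size among the called genes was 0.47. When same-numbered libraries were taken as pairs, 39.1% of genes were called (18.3% higher, 20.8% lower), and all 2926 genes were among them. The count fell to 1352 when DMF replicate 3 was omitted, to 1618 for LPS replicate 3 and to 1766 for DMF replicate 2; 1240 genes kept their call whichever library was left out. In 42.4% of all tested genes the 3 libraries of one group lay entirely beyond those of the other.

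**Figure D1:**
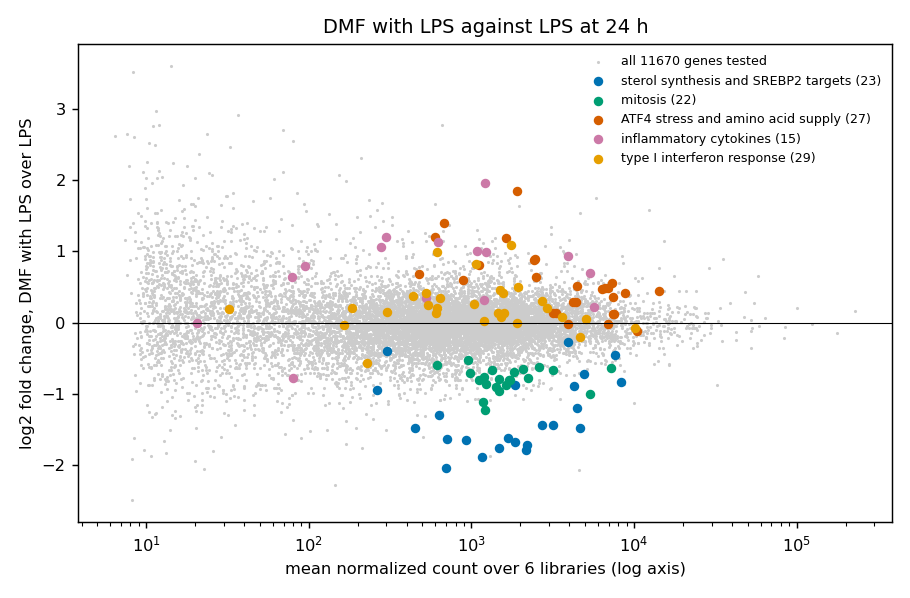
Each point is a gene, with its mean normalized count over the 6 libraries on a logarithmic horizontal axis and the log2 fold change of LPS with DMF over LPS on the vertical axis. The 23 sterol genes and the 22 mitosis genes all lie below 0, and 19 of the 27 ATF4 genes were called above it.

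The genes of cholesterol synthesis fell as a block. All 23 tested members of the list of sterol synthesis enzymes and SREBP2 targets were lower with DMF, with a median log2 change of -1.44 against -0.01 over all tested genes, and in each of them the 3 DMF libraries lay below the 3 LPS libraries. The list has 24 genes, of which 1 did not pass the filter on low values.

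Hsd17b7 (ENSMUSG00000026675, GRCm39 chromosome 1, 169777104 to 169796810), a ketoreductase of the later, post-squalene steps, fell the most. Its normalized counts were 1055, 1170 and 1150 in the LPS libraries and 303, 265.5 and 256.5 in the DMF libraries. It fell by 2.03 on the log2 scale (SE 0.0947, limma adjusted p = 2.46e-06, n = 3 a group), with a wide gap between the groups. Hmgcs1 (ENSMUSG00000093930, chromosome 13, 120151915 to 120169796) makes HMG-CoA, an early intermediate of the pathway, and is the gene whose sterol element is shown above. Its counts were 3352, 3357 and 3316 with LPS and 972.8, 1035 and 906.2 with DMF, with no overlap. It fell by 1.78 (SE 0.0724, adjusted p = 1.74e-06). Dhcr7, which makes the last double-bond reduction to cholesterol, fell from 1637, 1899 and 1922 to 563.8, 428.5 and 491.4, a log2 change of -1.88. Fdft1, squalene synthase, fell from 2018, 2490 and 2337 to 754.2, 621.7 and 656.7, a change of -1.75. Lss, lanosterol synthase, which closes the ring system, changed by -1.72. Acat2, the cytosolic thiolase that supplies acetoacetyl-CoA to Hmgcs1, is outside the list and was among the largest falls of all genes, from 2079, 1978 and 2037 to 656.8, 485.5 and 538.5 (-1.87, adjusted p = 5.54e-06). For all 6 the lowest LPS library held more than 2 times the count of the highest DMF library.

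Regulators of the pathway, named here with Ebp after their values were seen, moved the same way by smaller amounts. Insig1, which retains SREBP proteins in the endoplasmic reticulum, changed by -1.43 and Srebf2, which encodes SREBP2, by -0.83. Ebp, a sterol isomerase, was also among the smaller changes (-0.40) and lost its call without LPS replicate 3 (adjusted p = 0.061) or DMF replicate 3 (0.0546). In all, 21 of the 23 members kept their call whichever library was left out. Medians of the list within the 3 pairs of same-numbered libraries were -1.28, -1.57 and -1.38. Of the 16 members with a promoter in the table, Hmgcs1 alone held the sterol element as spelled here.

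**Figure D2:**
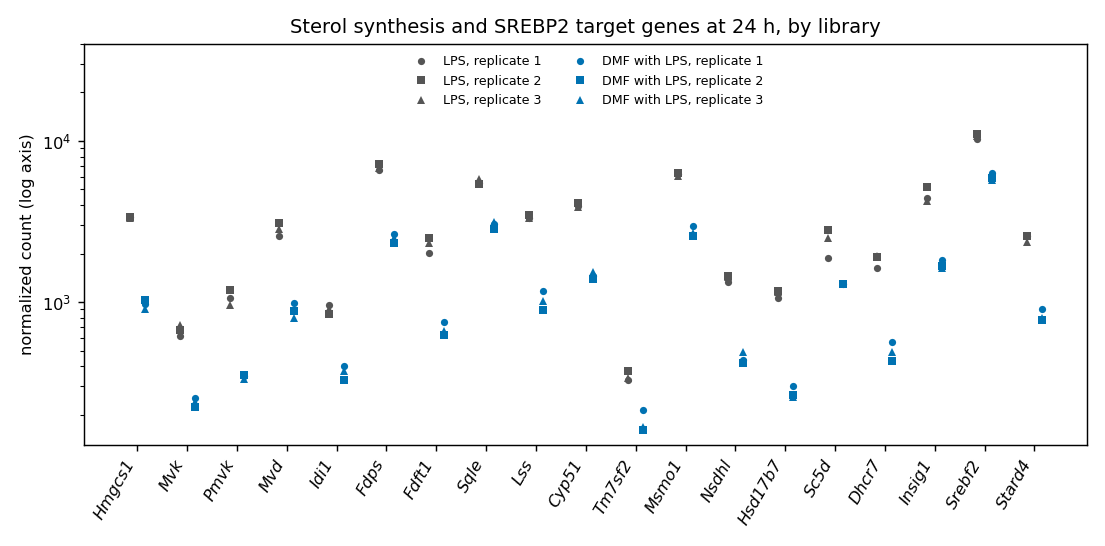
Normalized counts, on a logarithmic vertical axis, in each library of the 19 sterol synthesis and SREBP2 target genes that changed by at least 0.8 on the log2 scale; grey symbols are LPS, blue symbols LPS with DMF, and the shape gives the replicate number. For each gene all 3 blue symbols lie below all 3 grey ones, from Hsd17b7 (-2.03 on the log2 scale) to Srebf2 (-0.83).

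Fatty acid synthesis was lower in part. Of 12 tested members, 6 fell and none rose, with a median of -0.29. Acly, which splits citrate into cytosolic acetyl-CoA for both lipid pathways, fell from 11140, 11164 and 11079 to 6721, 5570 and 6162 (-0.86, adjusted p = 9.64e-05). The desaturases Scd1 (-0.60) and Fads2 (-0.54) and the elongase Elovl6 (-0.50) fell as well. The 6 members not called ranged from -0.24 to 0.21. Fasn, fatty acid synthase, named after its value was seen, was the highest of these, at 16412, 14355 and 14979 with LPS and 19526, 16714 and 16771 with DMF, and its adjusted p of 0.0992 became 0.0119 with the replicate block.

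Genes that move sterols out of the cell rose at the same time. Abca1 (ENSMUSG00000015243, chromosome 4, 53030787 to 53159895), the transporter that loads cholesterol onto apolipoprotein A-I, had counts of 1519, 2070 and 1689 with LPS and of 4131, 4662 and 4469 with DMF. The groups did not overlap, and it rose by 1.34 on the log2 scale (SE 0.107, adjusted p = 4.85e-05). Abcg1, its partner for transfer to high-density lipoprotein, rose from 1323, 1406 and 1219 to 2348, 2582 and 2513 (0.92, adjusted p = 7.36e-05). Lpl, lipoprotein lipase, fell by 1.13, from 11043, 15667 and 14578 to 7157, 5873 and 5695. Pltp, a phospholipid transfer protein counted at under 42 in all libraries, was called at 1.08 but lost the call in every fit that left out a library other than LPS replicate 3 (adjusted p = 0.0506 by edgeR, 0.0522 by DESeq2 and 0.0618 without the filter). In the whole list of lipid efflux and storage, 5 of 16 rose and 4 fell, with a median of 0.17. The 5 that rose became 3 without LPS replicate 1 or 3, and 2 without DMF replicate 2 or 3.

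The ATF4 program was higher. Of 27 tested genes of ATF4 stress and amino acid supply, 19 rose and none fell, with a median of 0.48, and 17 kept the call in every fit that left out a library. Trib3 (ENSMUSG00000032715, chromosome 2, 152179342 to 152185952), a pseudokinase that restrains Akt and ATF4 itself, had counts of 874.6, 785.8 and 817 with LPS and 2601, 3155 and 3124 with DMF. It rose by 1.84 on the log2 scale (SE 0.0901, adjusted p = 2.46e-06), and the groups were far apart. Ddit3, which encodes the transcription factor CHOP, rose from 345.9, 356.8 and 408.1 to 823.5, 1021 and 1102 (adjusted p = 7.31e-05). Chac1, which degrades glutathione, rose by 1.20, and Atf5, a related transcription factor, by 1.18. Atf4 itself, named for its role, went from 7514, 7497 and 7598 to 9495, 10074 and 10641 (0.42, adjusted p = 0.00232). The 8 members not called ranged from -0.12 to 0.29. The element TGATGNAAT, a form of the ATF4 site, stood in 2 of 22 members with a promoter, Nupr1 and Pycr1, and in 1.08% of all genes with one.

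Genes of protein folding in the endoplasmic reticulum moved unevenly. Of 20 tested, 7 rose and 1 fell, and the median was 0.09. Herpud1, a factor in degradation from the endoplasmic reticulum, rose from 1730, 1815 and 1971 to 3655, 4455 and 4975 (1.24, adjusted p = 8.4e-05). Dnajb9, a co-chaperone, rose by 1.14, and Syvn1, the ubiquitin ligase of that degradation route, by 0.69. Hspa5, the chaperone BiP and one of the most abundant transcripts that changed, rose from 23633, 18871 and 21516 to 30645, 39118 and 39779 (0.77, adjusted p = 0.00162). The 1 member that fell was not called when LPS replicate 1, LPS replicate 3, DMF replicate 1 or DMF replicate 3 was left out. In the cytosolic heat shock list 1 of 12 rose, Bag3 (0.34), and that call was lost without DMF replicate 3; 3 members were lower with the block or without LPS replicate 2, and 2 higher with the block or without LPS replicate 1.

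Cell cycle genes were lower. All 22 mitosis genes fell, with a median of -0.78 and, within pairs 1 to 3, medians of -0.57, -0.89 and -0.89. Aurkb, the Aurora kinase of the chromosomal passenger complex, went from 1696, 1465 and 1615 to 938.2, 634.6 and 670.6 (-1.11, adjusted p = 0.000575). Top2a, which untangles sister chromatids, went from 7850, 6160 and 7282 to 4751, 2874 and 3242 (adjusted p = 0.00221). In both, DMF replicate 1 was the highest of the DMF libraries, still under every LPS library. Cenpf, a kinetochore protein, and Prc1, which bundles the midzone, changed by -1.22 and -0.96. Of the 22, 18 kept the call whichever library was left out. In a bulk library fewer cycling cells and less of these transcripts per cell cannot be told apart.

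DNA replication genes moved with them. Of 27 tested, 23 fell and none rose, with a median of -0.63. Rrm2, the small subunit of ribonucleotide reductase, went from 4427, 3302 and 4259 to 2570, 1724 and 2041 (-0.93, adjusted p = 0.00193), and Rrm1, its large subunit, by -0.85. Lig1, the replicative ligase, changed by -0.88 and Mcm7, part of the replicative helicase, by -0.84. The 23 became 15 without DMF replicate 3, and the 4 members not called ranged from -0.56 to -0.10. Among cyclins of G1, their inhibitors and p53 targets, 4 of 25 rose and 5 fell, and the replicate block called 10 lower. Gadd45a, a growth arrest and damage gene, rose by 1.12 and the inhibitor gene Cdkn2c fell by 0.91. Sesn1, a p53 target, fell by 0.64. Btg2, an antiproliferative p53 target, was called at 0.62 with overlapping groups and lost the call without LPS replicate 1, LPS replicate 3, DMF replicate 2 or DMF replicate 3. The 4 that rose became 2 when LPS replicate 1 was omitted and 1 for LPS replicate 3, DMF replicate 2 or DMF replicate 3, and the 5 that fell became 9 for LPS replicate 2 and 3 for LPS replicate 3.

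Cytokine genes were mostly higher than with LPS alone. Of 15 tested inflammatory cytokines, 9 rose and 1 fell, with a median of 0.80, and all 10 kept the call in every fit that left out a library. Csf3 (ENSMUSG00000038067, chromosome 11, 98592089 to 98594455), which encodes the granulocyte growth factor G-CSF, had counts of 383.9, 632.6 and 450.7 with LPS and 1205, 2242 and 2364 with DMF. It rose by 1.95 on the log2 scale (SE 0.244, adjusted p = 0.000681), with no overlap between the groups. Lif, a cytokine of the interleukin-6 family, rose from 151.7, 213.4 and 173.5 to 299.7, 501.8 and 458.9 (1.20). Osm, of the same family, rose by 1.13, and Il23a, a subunit of interleukin-23, by 1.06. Il1a, the alarmin interleukin-1 alpha, rose from 668.9, 772.6 and 704.5 to 1068, 1489 and 1824 (adjusted p = 0.00211).

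Il1b, the central inflammasome substrate, had counts of 2187, 3354 and 2553 with LPS and 3623, 5903 and 6093 with DMF. DMF replicate 1 exceeded the highest LPS library by little. Its change of 0.93 was called (SE 0.197, adjusted p = 0.00775), and in a fit over all 18 libraries of 24 h the adjusted p was 0.0996. Il27, a cytokine that restrains T cells, was the 1 member that fell, by 0.77; it is named after its value was seen. The other 5 ranged up to 0.64. Tnf, named after its value was seen, is one of them, at 5342, 5045 and 5304 with LPS and 6350, 5499 and 6424 with DMF (0.22, adjusted p = 0.0637, or 0.0103 with the replicate block).

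Chemokines split. Of 15 tested, 7 rose and 2 fell, with a median of 0.19. Cxcl2 (ENSMUSG00000058427, chromosome 5, 91051730 to 91053797), a neutrophil attractant, had counts of 4715, 7863 and 5820 with LPS and 12578, 20954 and 22046 with DMF. It rose by 1.58 (SE 0.217, adjusted p = 0.00101), the lowest DMF library lying well above the highest LPS library. Its close relative Cxcl3 rose by 1.64. Ccl7, a monocyte attractant, went from 582.7, 240.8 and 474.8 to 823.5, 848.8 and 1048 (1.15, adjusted p = 0.0105), a call lost without DMF replicate 3 and in the fit over 18 libraries (0.0582). Cxcl11, an interferon-induced lymphocyte chemokine with low counts, fell by 1.87, from 17.24, 17.51 and 16.87 to 4.328, 4.657 and 3.09. Of 12 chemoattractant and metabolite receptors, 3 rose and none fell: C5ar1, the receptor for complement C5a (0.97), Ccr1 (0.65, lost without LPS replicate 1, LPS replicate 3, DMF replicate 2 or DMF replicate 3) and Cxcr2, the receptor for Cxcl2 (0.61). The block called 5 higher and 2 lower there, and 6 were higher without LPS replicate 2.

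Upstream of these, 8 of 23 genes of LPS sensing and the inflammasome rose and 1 fell (median 0.29). The LPS receptor gene Tlr4 rose from 701.1, 809.9 and 727 to 1197, 1263 and 1352 (0.77, adjusted p = 0.000367). The inflammatory caspases Casp4 (0.72) and Casp1 (0.62) rose too. Tlr1, which pairs with Tlr2 to sense lipopeptides, was called lower (-0.63, adjusted p = 0.0483), and the call was lost without LPS replicate 1, LPS replicate 3 or any DMF library, by DESeq2 (0.104), without the filter (0.108) and over 18 libraries (0.103). The 8 that rose became 12 with the block, 4 without LPS replicate 1 or 3, and 3 without DMF replicate 2 or 3. Of 17 genes of NF-kB and its feedback 1 rose and 2 fell, with a median of 0.02, against 11.9% and 13.2% of all tested genes. The block called 3 of them higher and 5 lower. Rela, the transactivating subunit, rose by 0.41. The feedback inhibitor Tnfaip3 fell from 698.8, 924.8 and 712.6 to 428.5, 562.4 and 514.5 (-0.63, adjusted p = 0.0074). Tnip3, another feedback inhibitor, fell by 0.52, a call lost without LPS replicate 3 or DMF replicate 3 and over 18 libraries (0.067). Omitting LPS replicate 1 gave 4 NF-kB members lower, omitting LPS replicate 3 or DMF replicate 3 gave 1, and omitting LPS replicate 2 or DMF replicate 1 gave 2 higher.

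Surface and effector genes of activation followed in part. Cd86 and Cd80, the costimulatory ligands of T cells, rose by 0.93 and 0.85, Cd86 from 791.9, 1006 and 861.2 to 1361, 1919 and 1834. Cd40 rose by 0.41 (lost without DMF replicate 3). Cd83, at counts of 5.623 to 32.6, was called at 1.44 but lost the call without LPS replicate 2, LPS replicate 3 or any DMF library. These 4 were the called members of 11 activation surface molecules, with a median of 0.13 and 2 called without DMF replicate 3. Of 12 complement, Fc and scavenger receptors, 2 rose, the IgG receptors Fcgr4 (0.82) and Fcgr3 (0.63), and 5 rose with the block or without LPS replicate 2. Of 14 antigen presentation genes none rose and 4 fell. Erap1, which trims peptides, fell by 0.43. The immunoproteasome genes Psmb9 (-0.43), Psmb10 (-0.31) and Psme1 (-0.25) were called, but each lost its call over 18 libraries (0.0613, 0.0608 and 0.131) and in at least 4 of the fits that left out a library; 1 antigen presentation gene was lower without LPS replicate 1, LPS replicate 3, DMF replicate 1 or DMF replicate 3, and 2 without LPS replicate 2.

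Among the enzymes of nitric oxide, prostanoids, itaconate and superoxide, 6 of 16 rose and 1 fell (median 0.23). Alox5, which starts leukotriene synthesis, rose from 205.7, 176.2 and 188.8 to 319.2, 372.6 and 328.3 (0.83, adjusted p = 0.000948). It was the 1 member to keep its call in every fit that left out a library. Ptgs2, cyclooxygenase-2, had counts of 18237, 33259 and 23472 with LPS and 33816, 51231 and 52675 with DMF (0.89, adjusted p = 0.0136, lost without LPS replicate 3 at 0.0578 and DMF replicate 3 at 0.0657). Acod1, which makes itaconate (0.63), and Cybb, the catalytic subunit of the phagocyte oxidase (-0.58), were called with overlapping groups; Acod1 lost the call over 18 libraries (0.0935) and by DESeq2 (0.0679), Cybb at 0.175 and 0.0811, and each in 4 of the fits that left out a library. Nos2, inducible nitric oxide synthase, named after its value was seen, had 5702, 9661 and 6684 with LPS and 3769, 7758 and 4870 with DMF. The groups overlapped, each DMF library lay below the LPS library of its number, and the change of -0.46 had an adjusted p of 0.191, or 0.00032 with the replicate block. The 6 that rose became 2 when LPS replicate 3 was omitted, 3 for DMF replicate 2 and 1 for DMF replicate 3, and the block called 3 lower.

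Secreted acute-phase and antimicrobial genes changed in both directions. S100a8 (ENSMUSG00000056054, chromosome 3, 90576285 to 90577342), a calcium-binding alarmin, had counts of 105.7, 233.1 and 160.7 with LPS and 693.6, 1593 and 1154 with DMF. It rose by 2.77 on the log2 scale (SE 0.309, adjusted p = 0.000369), and in both groups replicate 2 was the highest and replicate 1 the lowest. S100a9, which forms calprotectin with it, was at 0 in the LPS libraries and had a mean of 0.6456 with DMF. Both also mark neutrophils. Of 10 neutrophil markers 5 passed the filter. The granulocyte receptor gene Csf3r was lower with DMF (-0.81) and Cxcr2 higher (0.61). Ly6g (0.96, limma adjusted p = 0.0889) and Camp (-0.19, 0.765) were not called. Below the filter, means with LPS and with DMF were 1.837 and 10.45 for Mpo and 0.2678 and 3.637 for Ngp. They were 0.9187 and 0.6456 for Elane and 1.149 and 0.2575 for Ltf. The summed list, mostly S100a8, Cxcr2 and Csf3r, ranged over 1073 to 1555 with LPS and 1877 to 2966 with DMF. Whether other cells contributed was not tested.

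Hp (ENSMUSG00000031722, chromosome 8, 110301760 to 110305804), haptoglobin, which binds free hemoglobin, fell from 5825, 8972 and 7523 to 1822, 1971 and 1520 (-2.06, SE 0.145, adjusted p = 2.32e-05). The DMF libraries lay far below the LPS libraries. Cp, ceruloplasmin, an iron-oxidizing plasma protein, fell by 1.51. Lyz2, lysozyme, had 35970, 54512 and 44714 with LPS and 55129, 87229 and 70493 with DMF (0.65, adjusted p = 0.0233, lost without LPS replicate 1, LPS replicate 3, DMF replicate 2 or DMF replicate 3). Saa3, serum amyloid A, was called at -0.87 and lost the call without LPS replicate 3 (0.0614), DMF replicate 1 (0.066) or DMF replicate 3 (0.0818), by DESeq2 (0.0646) and over 18 libraries (0.0742). In all, 2 of 9 rose and 4 fell, with a median of -0.19; 2 fell when LPS replicate 3 was omitted, and the 2 that rose became 4 with the block or with LPS replicate 2 omitted and 1 with LPS replicate 1, LPS replicate 3, DMF replicate 2 or DMF replicate 3 omitted. Lcn2, lipocalin-2, named after its value was seen, had an adjusted p of 0.183 at 0.35 and of 0.00676 with the replicate block.

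Matrix genes and proteases rose where they moved. Of 14 tested, 7 rose and none fell, with a median of 0.70. Mmp12 (ENSMUSG00000049723, chromosome 9, 7344381 to 7369499), the macrophage elastase, had counts of 2571, 2798 and 2636 with LPS and 7432, 8808 and 10872 with DMF. It rose by 1.74 (SE 0.118, adjusted p = 1.61e-05). Mmp9, gelatinase B, rose from 358.6, 450.9 and 379.2 to 735.8, 815 and 759.4 (0.96). Mmp3, stromelysin, is outside the list and had 29.88, 26.27 and 12.85 with LPS and 89.81, 179.3 and 142.2 with DMF (2.55, adjusted p = 0.000786). Timp2, an inhibitor of these proteases, was called at 0.95 but not without LPS replicate 3, DMF replicate 2 or DMF replicate 3, each of which left 4 of the 7, and Serpinb2, an inhibitor of plasminogen activators at counts of 3.448 to 25.5, was called at 1.41 but not over 18 libraries (0.134), without the filter (0.051) or without LPS replicate 1, LPS replicate 3, DMF replicate 2 or DMF replicate 3.

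Nrf2 targets were higher for some members. Whether Nrf2 or another regulator, such as ATF4, moved these genes was not tested. In the list of glutathione and cystine genes 5 of 13 rose and none fell, with a median of 0.22. Slc7a11 (ENSMUSG00000027737, chromosome 3, 49846975 to 50398063), the cystine importer of system xc-, had counts of 1871, 3034 and 2255 with LPS and 5348, 7603 and 7818 with DMF. It rose by 1.54 (SE 0.178, adjusted p = 0.000441). Slc3a2, its heavy chain, rose by 0.94. Gclm, the modifier subunit of the enzyme that limits glutathione synthesis, rose from 1065, 1163 and 1138 to 1559, 1991 and 2006 (0.71, adjusted p = 0.00123). Gsto1, a glutathione transferase, was called at 0.31 and lost the call over 18 libraries (0.0847) and without LPS replicate 1, LPS replicate 2, LPS replicate 3, DMF replicate 2 or DMF replicate 3. The 5 became 3 without LPS replicate 3, DMF replicate 2 or DMF replicate 3.

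Of 12 thioredoxin and peroxiredoxin genes, 4 rose and 2 fell (median 0.04). Srxn1, sulfiredoxin, rose from 824, 873.3 and 850.7 to 1475, 2131 and 2279 (1.18, adjusted p = 0.000476). Prdx1 rose by 0.76, Txnrd1, thioredoxin reductase, by 0.55, and Prdx4, the peroxiredoxin of the endoplasmic reticulum, fell by 0.69. The 2 that fell became 1 in each fit that left out a library, by edgeR, by DESeq2 and without the filter. Of 13 heme and iron genes, 3 rose and none fell (median 0.16; 5 with the block): Slc40a1, the iron exporter ferroportin (0.77), Slc11a1, a phagosomal metal transporter (0.57), and Blvrb, biliverdin reductase B (0.80, lost without LPS replicate 3 at 0.0567 and DMF replicate 3 at 0.0525). Hmox1, heme oxygenase-1, the textbook Nrf2 target, is named for that role. It had 5307, 7519 and 6624 with LPS and 5600, 8714 and 7664 with DMF, overlapping groups, and its difference of 0.17 had an adjusted p of 0.475, or 0.0321 with the replicate block.

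Genes of NADPH supply and detoxification gave 3 higher and 2 lower of 16, with a median of 0.18; with the block 8 were higher and 4 lower. The 3 became 6 when LPS replicate 2 was omitted and 1 when DMF replicate 2 was. Osgin1, an Nrf2 target tied to oxidative stress and growth arrest, rose from 127.6, 104 and 141.4 to 290, 343.5 and 428.8 (adjusted p = 0.00036). Nqo1, the quinone reductase, was scarce in these cells, at 6.896, 10.94 and 7.23 with LPS and 17.31, 47.74 and 26.27 with DMF (1.66, adjusted p = 0.0129, lost without DMF replicate 2 at 0.0565). Me1, malic enzyme, which makes NADPH, and Ephx1, an epoxide hydrolase, fell by 0.49 and 0.52. In the list of Nrf2 and its partners, 5 of 9 rose and none fell (median 0.27; 3 without LPS replicate 3 or DMF replicate 3). Sqstm1, the autophagy receptor p62 that also binds Keap1, rose from 9964, 8892 and 9363 to 17014, 22060 and 24319 (1.15, adjusted p = 0.000226). Bach1, a repressor of the antioxidant element, rose by 0.65, Nfe2l1, the relative of Nrf2, by 0.55 and the small Maf gene Mafk by 0.36, the last lost without LPS replicate 3 or DMF replicate 3. The antioxidant core stood in 18.2% of glutathione and cystine, 27.3% of thioredoxin, 35.7% of NADPH and detoxification and 11.1% of heme and iron genes with a promoter. It stood in 17% of tested genes with a promoter and in 16.8% of those higher with DMF.

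Interferon-stimulated genes moved in part at 24 h. Of 29 tested genes of the type I interferon response, 5 rose and 1 fell, against 11.9% and 13.2% of all tested genes. Their median was 0.20. With the replicate block 13 rose and 2 fell, against 18.3% and 20.8% of all tested genes, and DESeq2 called 8 higher. Rsad2, the antiviral protein viperin, rose from 1073, 1322 and 925.5 to 1740, 3103 and 2356 (1.09, adjusted p = 0.00282). Isg15, the ubiquitin-like modifier, rose from 405.7, 433.4 and 368.7 to 580, 1083 and 804.3 (0.99, adjusted p = 0.00423). Ifit1 (ENSMUSG00000034459, chromosome 19, 34618271 to 34627409), which binds foreign RNA caps, went from 724, 913.8 and 645.1 to 993.4, 1765 and 1336 (0.82, adjusted p = 0.0114, and 0.0576 without LPS replicate 3). In these 3 the groups did not overlap and replicate 2 was the highest of each group. Ifi47, an interferon-inducible GTPase, fell by 0.57, a call lost over 18 libraries (0.0617). The 5 that rose became 2 when LPS replicate 3 was omitted, 3 for DMF replicate 3, and 9 for LPS replicate 2 or DMF replicate 1. The interferon element was found in 12 of the 23 members with a promoter (52.2%, against 9.76% of all genes), including the 3 printed above.

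Among 9 interferon-inducible GTPases 3 rose and none fell (median 0.34). With the block 5 were higher and 1 lower, and the 3 became 5 when DMF replicate 1 was omitted, 6 for LPS replicate 2 and 2 for LPS replicate 3 or DMF replicate 2. Irgm2 rose by 0.77. Irgm1 rose by 0.50 but not without LPS replicate 3 (0.0729) or DMF replicate 2 (0.0502). Gbp8, a guanylate-binding protein, had 3.448, 0 and 1.607 with LPS and 22.72, 32.6 and 24.72 with DMF, and as a member of a family with close copies its counts are uncertain.

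Metabolic and housekeeping lists moved less, and their counts stand against 11.9% of all tested genes higher and 13.2% lower. Of 18 glycolysis genes, 4 fell and none rose (median -0.13), Pfkm (-0.71) and Pfkl (-0.44), the muscle and liver phosphofructokinases, Pdk1 (-0.70), which shuts pyruvate dehydrogenase, and Ldha (-0.35, lost without LPS replicate 3 or DMF replicate 3). The nuclear-encoded respiratory chain had 7 of 25 lower and none higher (median -0.15), with Sdhc (-0.38), Ndufv1 (-0.36), Uqcrfs1 (-0.36) and Atp5f1a (-0.35) the largest. That count was 13 with the block or with LPS replicate 2 omitted, 4 for LPS replicate 1, 2 for LPS replicate 3, 1 for DMF replicate 2 and 3 for DMF replicate 3. Atp5f1a (0.0538 without the filter) and Uqcrfs1 lost their calls most often, the first without LPS replicate 1, LPS replicate 3, DMF replicate 2 or DMF replicate 3, the other without any library but LPS replicate 2, while Ndufv1 lost it without DMF replicate 2 and Sdhc without LPS replicate 3 or DMF replicate 2. Of 26 proteasome genes, 3 fell (median -0.10), Psma6 (-0.30), Psma3 (-0.25) and Psma7 (-0.22; 0.056 without the filter), of which Psma6 alone kept its call whichever library was left out; 6 fell with the block and 1 without LPS replicate 1, LPS replicate 3 or any DMF library.

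Of 28 lysosome genes, 6 rose and 3 fell (median 0.08; 5 fell with the block or without LPS replicate 1). Ctsk, cathepsin K, rose from 257.4, 215.6 and 341.4 to 497.8, 648.5 and 618.8 (1.13), and Ctss, cathepsin S (-0.64), and Hexa, a lysosomal hydrolase subunit (-0.41), fell. The 6 became 3 without LPS replicate 1 and 2 without LPS replicate 3, DMF replicate 2 or DMF replicate 3. Of 17 AP-1, immediate early and MAP kinase phosphatase genes, 5 rose and 1 fell (median 0.30; 8 rose with the block or without DMF replicate 1, and 3 without LPS replicate 3, DMF replicate 2 or DMF replicate 3). The 1 that fell was not called in the last 3 of these fits. Dusp5, which inactivates ERK, rose from 673.5, 731.1 and 678.8 to 1250, 1461 and 1606 (1.04). Fosl1 (0.73) and Dusp2 (0.58) rose, and Fosb (0.74) was called but lost the call by DESeq2 (0.0532), over 18 libraries (0.0521), without the filter (0.0747) and without any library but LPS replicate 1. The metallothionein and zinc list had 4 of 7 higher and 1 lower, Slc30a1 (0.39), Mt1 (0.37, lost without DMF replicate 3), Mtf1 (0.30, lost without LPS replicate 3, DMF replicate 2 or DMF replicate 3) and Slc39a10 (-0.36, lost without LPS replicate 2, LPS replicate 3, DMF replicate 2 or DMF replicate 3); the 4 became 2 without LPS replicate 3 and 1 without DMF replicate 3. Of 8 genes of the actin cytoskeleton and SRF, 2 rose, Flna (0.45) and Tpm1 (0.27, lost without LPS replicate 3, DMF replicate 2 or DMF replicate 3).

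**Figure D3:**
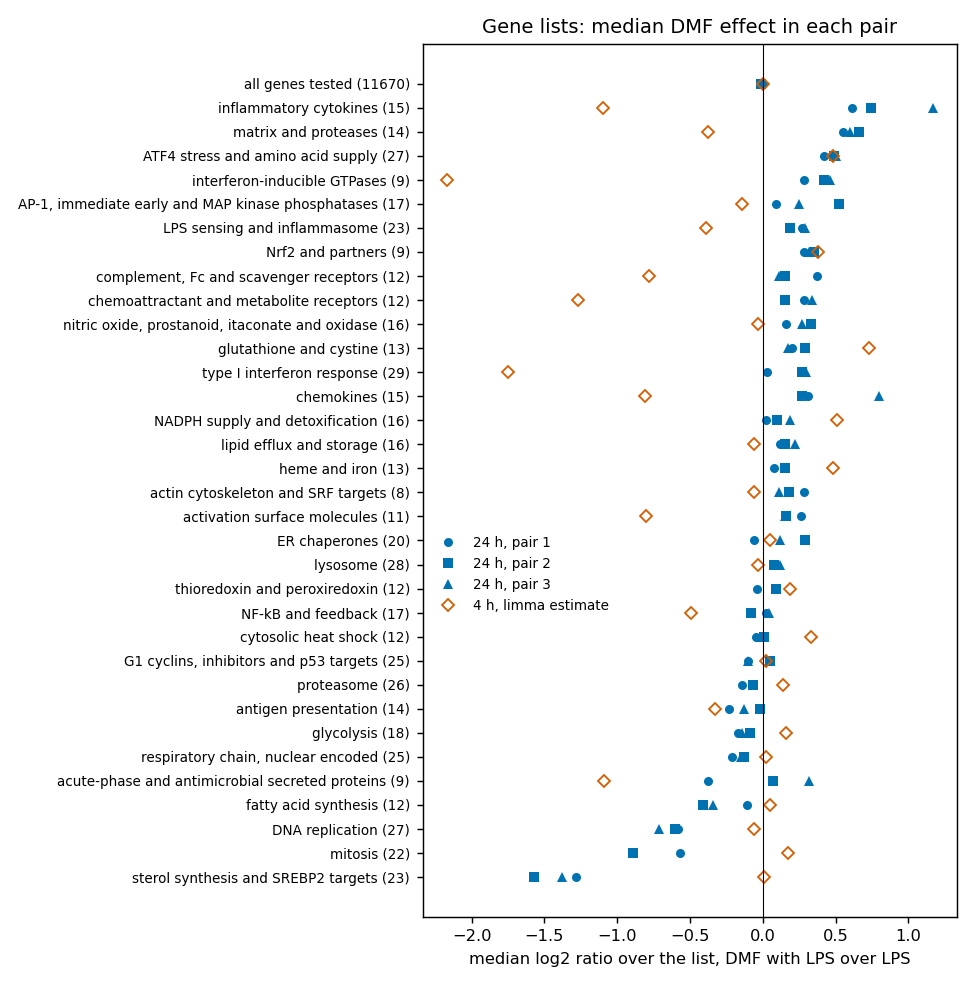
For each gene list, with its number of tested genes in brackets, blue symbols give the median log2 ratio of LPS with DMF over LPS at 24 h within each same-numbered pair of libraries, and open orange diamonds the median at 4 h. Sterol synthesis lay at -1.28 to -1.57 in the 3 pairs and at 0.01 at 4 h, and inflammatory cytokines above 0 in each pair and at -1.10 at 4 h; the list of metallothionein and zinc genes, with 7 tested, is not drawn.

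Genes outside these lists were among the largest changes. Avil, advillin, an actin-severing protein, rose from 22.99, 15.32 and 15.26 to 94.14, 142 and 127.5 (2.70, adjusted p = 8.75e-05). Hid1, needed for dense-core vesicles, rose from 73.55, 56.91 and 73.91 to 245.6, 427.3 and 373.2 (2.31). In both the groups lay far apart. Tenm4, a teneurin (2.46), A530064D06Rik (2.11), Lipn, a lipase (2.07), Pla1a, a phospholipase (2.01), and F2rl2, the thrombin receptor PAR-3 (1.98), rose as well, and Lypd6b rose by 2.91 from low counts of 10.34, 15.32 and 1.607 to 32.46, 60.54 and 98.89. Tnnt2, cardiac troponin T, fell from 232.2, 282.4 and 209.7 to 68.17, 46.57 and 35.54 (-2.28, adjusted p = 0.000165). Hdac9, a class IIa histone deacetylase (-1.76), and Thbs3, a thrombospondin (-1.70), fell. The most abundant transcripts that changed by at least 0.5 included Plek, pleckstrin, which rose by 0.66, and Ptma, prothymosin alpha, which fell by 0.60.

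The effect of DMF at 24 h was then set against its effect at 4 h, where 11.1% of 11371 genes were called (4.55% higher, 6.51% lower). In a fit over 12 libraries of both times, the difference between the effects was called in 1954 of 11909 genes (16.4%), 8.26% with a more positive and 8.15% with a more negative effect at 24 h. Genes called at both times in opposite directions were counted only where the difference was also called and the mean count at 24 h was at least 50. There were 125 of them, of which 98 were lower at 4 h and higher at 24 h and 27 the reverse.

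For sterol synthesis the change belonged to the later time. None of 23 members was called at 4 h, where the median was 0.01, and in 21 the effect was more negative at 24 h. Hsd17b7 was at -0.03 at 4 h, and its effect differed between the times by -2.01 (adjusted p = 2e-06). Mitosis genes had a median of 0.17 at 4 h with 1 called higher, and in all 22 the effect was more negative at 24 h. The effect on DNA replication genes was more negative at 24 h in 14 of 27. The ATF4 list was as far up at 4 h, with 15 of 27 higher and a median of 0.48, and the difference was called in 2 genes in each direction; Trib3 stood at 1.91 at 4 h and differed by -0.08 between times.

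Most interferon and cytokine genes had a more positive effect at 24 h than at 4 h. At 4 h, 25 of 29 type I interferon genes were lower with DMF and none higher, with a median of -1.75, and in 27 the effect was more positive at 24 h. Ifit1 was at -2.90 at 4 h, a difference between the times of 3.71 (adjusted p = 1.23e-05). Isg15 was at -1.95 and Rsad2 at -1.75, with differences of 2.93 and 2.83. Of 8 interferon-inducible GTPases tested at 4 h all 8 were lower, with a median of -2.17, and the effect was more positive at 24 h in all 9 tested for it. Among cytokines 7 of 14 were lower and 1 higher at 4 h, and the effect was more positive at 24 h in 13 of 15. Il1b was at -3.09 at 4 h with a difference of 4.01 (adjusted p = 0.00592), Il1a at -2.24 with 3.23, and Ccl7 at -3.18 with 4.32.

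Nrf2 targets went the other way, with larger rises at 4 h. Srxn1 rose by 3.46 at 4 h, and its effect at 24 h was more negative by -2.28 (adjusted p = 3.88e-06). Gclm rose by 2.91 and differed by -2.21, Slc40a1 rose by 3.40 and differed by -2.64, and Slc7a11 rose by 2.75 and differed by -1.22. Hmox1 rose by 3.46 at 4 h and differed by -3.31 (adjusted p = 3.59e-06). Me1 was higher by 1.07 at 4 h and lower at 24 h. The effect was more negative at 24 h in 5 of 13 glutathione genes, 6 of 12 thioredoxin genes, 5 of 13 heme and iron genes and 8 of 16 NADPH and detoxification genes, and more positive in 1, a thioredoxin list member.

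**Figure D4:**
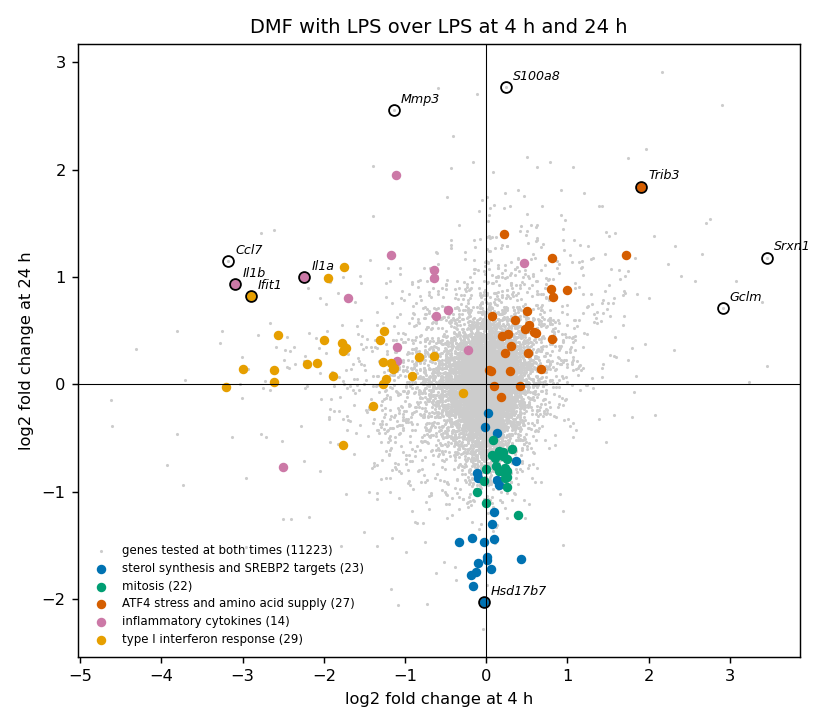
Each point is a gene tested at both times, with the log2 fold change of LPS with DMF over LPS at 4 h on the horizontal axis and at 24 h on the vertical axis. Interferon genes (orange) lie to the left, with Ifit1 at -2.90 and 0.82, Srxn1 and Gclm to the right, and sterol genes (blue) near 0 at 4 h and down to -2.03 at 24 h.

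DMF was also set against MMF, which lacks one of its methyl esters, at the same 30 µM and 24 h under LPS; this was the 1 pair of compounds compared. The DMF libraries are those used above, so the values stand side by side with the earlier ones and are not a second line of evidence. Under limma, 2508 of 11665 genes differed (21.5%), 10.1% higher and 11.4% lower with DMF. All 23 sterol genes were lower with DMF than with MMF, with a median of -1.34. Hmgcs1 had a mean of 992.3 ± 70.7 (SD, n = 3) with LPS and DMF, 3070 ± 114 with LPS and MMF, 3391 ± 37.9 with LPS and 2530 ± 32.7 with DMSO alone, in normalized counts scaled jointly over the 18 libraries of 24 h. The difference between DMF and MMF was -1.64 (adjusted p = 9.26e-06). Of the mitosis genes 20 of 22, and of the replication genes 19 of 27, were lower with DMF. ATF4 genes were higher in 19 of 27, Trib3 by 1.65, and cytokines in 10 of 15, Csf3 by 1.58 and Il1b by 0.87 (adjusted p = 0.0307). Type I interferon genes were higher in 7 of 29, with Rsad2 at 1.19.

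Several Nrf2 targets did not pass the test between the compounds. Gclm differed by 0.10 (95% interval -0.13 to 0.33), Txnrd1 by 0.08 (-0.07 to 0.23), Blvrb by 0.03 (-0.41 to 0.48) and Hmox1 by -0.04 (-0.37 to 0.29). For the first 2 the intervals leave room for less than 0.34 on the log2 scale in either direction. Gclm stood at 1892 ± 266 with DMF, 1746 ± 143 with MMF and 1139 ± 53.9 with LPS. Slc7a11 was higher with DMF than with MMF by 0.73 (0.36 to 1.10, adjusted p = 0.0141) and Srxn1 by 0.51 (0.19 to 0.83, adjusted p = 0.0319). In the whole glutathione list 2 of 13 were higher with DMF and 3 lower, and in the list of Nrf2 and its partners 5 of 9 were higher and none lower, with a median of 0.34. Of the thioredoxin list 2 of 12 were higher and 2 lower, of the NADPH and detoxification list 1 of 16 and 3, and of the heme and iron list none of 13 and 1.

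Levels across the conditions of 24 h placed these changes beside the unstimulated cells, as a description with no test. Hp stood at 1481 ± 387 with DMSO, 7553 ± 1623 with LPS, 4976 ± 1647 with LPS and MMF and 1809 ± 242 with LPS and DMF, so the ranges of DMSO and of LPS with DMF overlapped. Il1b stood at 43.57 ± 22.8 with DMSO, 2740 ± 618 with LPS, 2921 ± 938 with MMF and 5321 ± 1421 with DMF. Trib3 was lower with LPS (838 ± 44.1) than with DMSO (1478 ± 259) and higher with LPS and DMF (3024 ± 331) than with either. Abca1 likewise stood at 1786 ± 293 with LPS, 2785 ± 666 with DMSO and 4516 ± 300 with LPS and DMF. Ddit3 stood at 375.7 ± 32.3 with LPS, 871.6 ± 60.3 with DMSO and 1003 ± 149 with LPS and DMF. For Ddit3 the ranges of DMSO and of LPS with DMF overlapped. S100a8 went from 23.88 ± 10.1 with DMSO over 169.1 ± 65.5 with LPS and 184.9 ± 76.7 with MMF to 1173 ± 467 with DMF. LPS with CBD, which the figure leaves out, shared some of these moves and not others. Hmgcs1 (1285 ± 210) and Aurkb (586.6 ± 104, LPS 1615 ± 114) were also below LPS. Ddit3 (3112 ± 743, LPS 375.7 ± 32.3) was also above it. Unlike with DMF, Il1b (268.8 ± 173) and Abca1 (439 ± 173) were below LPS with CBD. Hp, at 3474 ± 2051 with CBD, was below LPS as it was with DMF.

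**Figure D5:**
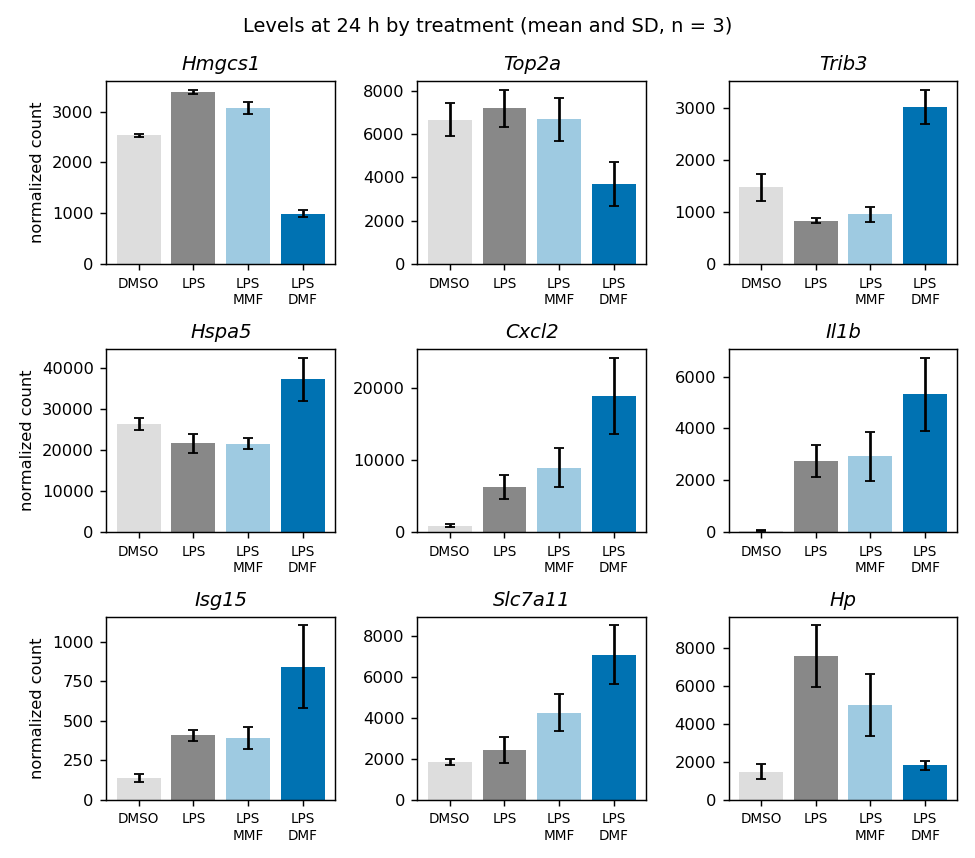
Bars give the mean normalized count and whiskers the SD over 3 libraries at 24 h for DMSO, LPS, LPS with MMF and LPS with DMF, with the vertical axis of each panel starting at 0. Hmgcs1 falls to 992.3 with DMF from 3391 with LPS, Il1b reaches 5321 from 2740, and Hp, at 1809, lies within the spread of the DMSO libraries.

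Finally, genes that differ between LPS with MMF and DMSO were followed as a stand-in for the LPS response. That contrast shares no library with the comparison of DMF and LPS. It also holds any effect of MMF, which was not separated from that of LPS. Of 1448 genes raised in that contrast, 15.5% were higher and 16.2% lower with DMF than with LPS alone, and of 1110 lowered genes 20.6% were higher and 12.5% lower; over all 11448 genes tested in both, the shares were 11.8% and 13.4%. The medians were 0.01, 0.04 and -0.01. With the response taken from LPS against DMSO at 4 h instead, 24.9% of 872 raised genes were higher with DMF at 24 h and 9.52% lower, and of 727 lowered genes 8.8% were higher and 26.1% lower. The shares for the raised genes of 24 h fell when LPS replicate 3 (9.94% higher and 9.32% lower) or DMF replicate 3 (8.77% and 9.05%) was omitted and, for the higher share, when DMF replicate 2 was (10.3%); those for the lowered genes fell to 12.2% and 7.21%, to 10.9% and 6.31%, and to 12.4% for the higher share, in the same order.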

How the data were processed

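Poly(A)+ RNA of BV-2 cells was sequenced, and the authors processed the reads with FastQC 0.12.1, cutadapt 4.4, Trimmomatic 0.39, HISAT2 2.2.1, HTSeq 2.0.3 and DESeq2 1.40.2 against GRCm39, per the submitters' processing notes. The deposited values are a signal per gene, namely read counts divided by the DESeq2 size factors of each table; the authors' fold changes and p-values in the same tables were not used. All 526434 values examined (100%) were whole reads after rescaling, within 0.01, so edgeR and DESeq2 could be run as alternatives; they called 2948 and 2955 genes. Whether counting used strand is not given in the sources used here, so overlapping and antisense genes are uncertain.

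Values were tested as log2(normalized count + 1), which understates changes of low genes, with limma 3.58.1 (R 4.3.3, moderated with an abundance trend, Benjamini-Hochberg adjusted p below 0.05, two-sided) on the 6 libraries, among genes at 10 or more in at least 3. The difference between 24 h and 4 h was an interaction term over 12 libraries. Alternatives were edgeR 4.0.16, DESeq2 1.42.0, TMM factors, other filters and pseudocounts, a GC and length trend, all 18 libraries of 24 h, the replicate number as a block, and each library left out. The series' design names 3 independent experiments without tying library numbers to them. Same-numbered libraries deviated together in all 3 pairs (r = 0.337, 0.514 and 0.225 over 10139 genes). The numbers were taken as pairs only for the replicate block and for the medians within pairs. The main test, and every adjusted p given without mention of the block, left the pairing out. It called 2926 genes, against 4566 with the block. On simulated data of 11670 genes the test recovered 97% of log2 changes of 1 and 59% of changes of 0.5, with 8 false calls among the unchanged genes. The simulation gave all genes a common dispersion, changed few of them and held no replicate effect, so these rates need not hold for the real libraries. Depths of 15081796 to 22774814 reads leave counts of a few reads imprecise.

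Genes were named by rule: the 10 largest rises and 10 largest falls among called genes with separate groups and a mean of at least 50 in the higher group, up to 4 called members of each of 34 lists with the largest changes, the 4 largest interactions among genes with opposite directions at both times, and the 6 most abundant called genes with a change of at least 0.5. For the genes with opposite directions, the interaction had to be called and the mean count at 24 h had to be at least 50. Members, lists and tests were chosen with earlier results of these data known. Figures were drawn with matplotlib 3.10.9 and tables made with pandas 2.3.3 in Python 3.11.15. Some genes that the naming rule or the lists hold are not reported here.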

Additional observations from a re-analysis of the deposited data

Results flagged for a closer look

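The DMF effect on 22 of the genes named for the largest changes or for opposite directions differed between 24 h and 4 h in the limma interaction test, at an adjusted p below 0.05. The effect was more positive at 24 h, in log2 units, for Ccl7 (4.32), Il1b (4.01), Ifit1 (3.71), Mmp3 (3.68), Il1a (3.23), Avil (2.80), Hid1 (2.72), Tenm4 (2.54), S100a8 (2.52), Pla1a (2.43), Lipn (2.22) and F2rl2 (1.90). Of these Ccl7, Il1b, Ifit1 and Il1a were called in opposite directions at the 2 times. The rule that named these 4 already required a called interaction. The other flagged genes were named for large changes at 24 h, which enter the interaction. The calls thus follow in part from the naming and are given as a description. The effect was more negative at 24 h for Tnnt2 (-2.26), Hsd17b7 (-2.01), Acat2 (-1.89), Lss (-1.79), Dhcr7 (-1.73), Fdft1 (-1.63), Hmgcs1 (-1.60), Thbs3 (-1.32), Hdac9 (-1.15) and Hp (-0.98). Hp was lower with DMF at both times. Among all 143 named genes the difference was called more positive in 54 and more negative in 47. Over all 11909 genes tested the shares were 8.26% and 8.15%. Every one of the 143 was named from genes called at 24 h, so these counts reflect the naming.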

How the results depend on the processing

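Against LPS, the 2926 called genes (1390 higher, 1536 lower) became 323 (208, 115) above a log2 change of 1, 4566 (2137, 2429) with the replicate block and 4763 (2183, 2580) with the block and the GC and length trend; leaving out a library gave 1352 to 3357 (650 to 1550, 702 to 1807). Against MMF, 2508 (1173, 1335) became 237 (162, 75), 4639 (2157, 2482) and 4733 (2129, 2604), and 962 to 2957 (471 to 1392, 491 to 1565), the lowest without DMF replicate 3; without MMF replicate 1 or 3 or DMF replicate 2 it was 1417, 1276 and 1456. The interaction's 1954 (984, 970) became 577 (414, 163) above 1; with the block 1466 were more negative; leaving out a library gave 1263 to 2141 (663 to 1121, 600 to 1054), with 645 and 622 more negative without LPS replicate 3 at 4 h and DMF replicate 2 at 24 h. Of genes raised by LPS with MMF, 15.5% higher and 16.2% lower became 24.9% and 9.52% with the 4 h response to LPS alone. The shares were 26% and 24.7% with the block, and 8.77 to 22.2% and 9.05 to 15.2% without a library. Of lowered genes, 20.6% and 12.5% became 8.8% and 26.1% with the 4 h response. With the block 19.6% of them were lower, and without a library the shares were 10.9 to 19.9% and 6.31 to 13.6%. With the 4 h response the order of the 2 shares thus turned among lowered genes, and higher exceeded lower among raised genes. Among raised genes higher also exceeded lower with the block and above a log2 response of 1 (21.4% and 13.3%). It did so without LPS replicate 2 (22.2% and 15.2%), LPS replicate 3 or DMF replicate 1 (17.3% and 14.6%). With LPS against DMSO as the response and DMF against MMF as the effect, the shares were 10.9% and 16.7%. The order among raised genes was thus not stable. The causes were not tested. No named gene changed sign. Of 143 named genes, 14 lost their call over 18 libraries, 6 by DESeq2, 6 without the filter, 1 by edgeR, none with TMM factors, a pseudocount of 5 or the GC trend, and 8 to 32 without a library; the replicate block ended none. The 3 cultures a group limit the error estimate, and depth limits genes under about 10 counts.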
